A study of Mus musculus with 12 samples.

Results

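The chemokines Ccl17 and Ccl22, their shared receptor Ccr4, and the regulatory T cell genes Foxp3, Il2ra and Ikzf2 were followed in breast tumors treated with a PARP inhibitor, a STING agonist or both. The 6 genes were picked by name from the 750 genes of the measured table, and all 6 were found there under these symbols. Ccl22 is among the genes that the study selected on these tumors for an increase with the combination, so its comparisons with the combination are given as a description, with no test.

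CCL17 and CCL22 are CC chemokines, small secreted proteins made mainly by dendritic cells and macrophages. Both bind CCR4, a receptor carried by T helper type 2 cells, skin-homing T cells and many regulatory T cells, and CCL22 is known in tumors for drawing regulatory T cells into the tissue. Regulatory T cells are CD4 T cells that restrain other T cells. They are defined by the transcription factor FOXP3, carry high amounts of the interleukin-2 receptor alpha chain (CD25, encoded by Il2ra), and often contain the transcription factor Helios (encoded by Ikzf2). Neither Il2ra nor Ikzf2 is particular to them, since activated effector T cells also carry CD25 and Helios is found in other lymphocytes.

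All tumors were K14-Cre-Brca1f/f;Trp53f/f tumors, which model triple-negative breast cancer and in which Cre under a keratin 14 promoter deletes Brca1 and Trp53 in epithelial cells, and all 4 groups share these deletions. Chunks of tumor were grown in the mammary fat pads of female FVB/129P2 mice, which are syngeneic and immunocompetent, and 3 tumors per group were harvested at 3 days. Vehicle mice received DMSO in saline by intraperitoneal injection and saline into the tumor. The other mice received the PARP inhibitor olaparib at 50 mg/kg intraperitoneally each day, the cyclic dinucleotide STING agonist ADU-S100 as a single intratumoral injection of 50 μg in 40 μl, or both (the combination). RNA was counted on the nCounter immune panel, where color-coded probes are counted one by one. The labels name each tumor by a number but do not say whether the tumors trace back to separate donor tumors, so p-values measure the spread between these 12 tumors.

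The deposited normalized counts of each tumor were whole multiples of a single step, and division by it gave back the counts before scaling (the recovered counts). In 5 tumors the lowest value was worth exactly 1 count. In the other 7 the step was inferred from all low values, and the recovered counts rest on that inference. These summed to between 106206 (olaparib tumor 1517) and 1519471 (vehicle tumor 1269) per tumor, and 1 count was worth between 0.589 and 10.5 normalized units. The 3 combination tumors had nearly the same step, 0.810 to 0.824, while the steps of the olaparib tumors spanned the whole range. As a measure of background, the 30 genes with the lowest mean recovered count were used to set a low-count limit in each tumor (their mean plus 2 SD), which lay between 7.17 and 14.7 counts. Values at or under it are called near background below. A tumor chunk is a mixture, and fewer cells of a type and less RNA per cell cannot be told apart in it.

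The promoters of 3 of these genes are shown because Ccl22 and Il2ra were both highest on average in the combination tumors and Ccl17, which lies near Ccl22 on chromosome 8 with 1 protein-coding gene (Cx3cl1) between them, was not. Each sequence is taken from RefSeq (GRCm38.p6, plus strand) and runs from 250 bases before to 50 bases after the annotated start. Capitals mark matches to GGGNNNNNCC, a loose pattern for NF-kB sites, or to TTCNNNNGAA, a loose pattern for STAT6 sites, on either strand.
Ccl22, chr8:94745434-94745733: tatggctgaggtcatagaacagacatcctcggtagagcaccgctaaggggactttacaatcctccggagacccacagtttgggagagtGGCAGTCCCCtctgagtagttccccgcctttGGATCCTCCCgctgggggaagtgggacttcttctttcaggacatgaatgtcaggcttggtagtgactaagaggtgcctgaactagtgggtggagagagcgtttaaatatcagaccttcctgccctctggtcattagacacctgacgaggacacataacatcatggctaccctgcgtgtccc
Ccl17, chr8:94810203-94810502: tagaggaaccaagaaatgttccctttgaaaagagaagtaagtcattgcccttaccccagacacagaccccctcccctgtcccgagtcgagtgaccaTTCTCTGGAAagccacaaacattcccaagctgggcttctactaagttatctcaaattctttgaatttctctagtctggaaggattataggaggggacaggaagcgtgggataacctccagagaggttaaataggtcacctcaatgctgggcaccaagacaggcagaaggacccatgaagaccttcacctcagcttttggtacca
Il2ra, chr2:11642542-11642841: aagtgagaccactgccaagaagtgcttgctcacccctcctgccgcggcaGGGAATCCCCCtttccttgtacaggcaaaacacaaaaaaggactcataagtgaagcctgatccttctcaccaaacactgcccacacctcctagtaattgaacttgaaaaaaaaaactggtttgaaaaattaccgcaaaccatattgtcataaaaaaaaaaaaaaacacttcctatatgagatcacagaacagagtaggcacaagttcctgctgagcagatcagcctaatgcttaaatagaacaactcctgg
The Ccl22 window held 2 matches to the NF-kB pattern and the Il2ra window 2 overlapping ones, while the Ccl17 window held 1 match to the STAT6 pattern and 0 to the NF-kB pattern. The interferon regulatory factor pattern GAAANNGAAA had 0 matches in these windows. Of 32851 mouse promoter windows of the same length, 50.8% held the NF-kB pattern, 6.95% the STAT6 pattern and 3.44% the interferon pattern, so that an NF-kB match is common. In Ccr4 none of the patterns was found, and of the 2 Foxp3 windows 1 held a single NF-kB match. No window was listed for Ikzf2.

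In the deposited normalized counts, Ccl22 was higher in every combination tumor than in any of the 9 other tumors, by a narrow margin from olaparib tumor 1517. Its normalized counts were 18.4, 34.2 and 20.1 in the vehicle tumors 1269, 1529 and 1536. They were 48.4, 33.4 and 22.8 in the ADU-S100 tumors 1506, 1512 and 1513 and 42.9, 62.9 and 18.9 in the olaparib tumors 1510, 1517 and 1521. In the combination tumors 1251, 1270 and 1539 they were 64.8, 70.9 and 90.2. The single-treatment groups overlapped with vehicle and with each other. The nearest value to the combination, 62.9 in olaparib tumor 1517, rested on 6 recovered counts and was near background. The exact Poisson 95% interval of those counts, scaled in the same way, ran from 23.1 to 137 normalized units and covered all 3 combination values. Such intervals cover counting error only. Per 1000000 recovered counts, a scale chosen after seeing the data, tumor 1517 (56.5) lay above combination tumor 1251 (53.6), and 8 of the 9 other tumors remained below the combination. Before scaling, the combination tumors held 80, 86 and 110 Ccl22 counts and the 9 other tumors 6 to 32.

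The group means of Ccl22 were 24.2 ± 8.67 (SD, n = 3) normalized counts with vehicle, 34.9 ± 12.9 with ADU-S100, 41.5 ± 22.0 with olaparib and 75.3 ± 13.2 with the combination. Differences were taken on the log2(normalized count + 1) scale, on which the change of a thinly counted gene is understated. On it, the combination exceeded vehicle by 1.63 (SE 0.49, limma), ADU-S100 by 1.14 and olaparib by 0.99. In the deposited values, a separation upward from all 9 other tumors was seen in 22 of the 689 genes that passed the filter on low values (3.19%). The study chose Ccl22 for this contrast, so nothing is read from that share. With any 1 tumor left out, the difference from vehicle stayed between 1.47 and 1.90 and that from olaparib between 0.51 (without olaparib tumor 1521) and 1.36. The tumor numbers begin with 12 or 15, and the labels give no meaning for this. The combination exceeded vehicle by 1.82 among tumors numbered 12 (2 against 1) and by 1.74 among those numbered 15 (1 against 2). All 3 ADU-S100 and all 3 olaparib tumors are numbered 15, as is only 1 combination tumor. In the comparisons of the combination with either drug alone, treatment and number series are therefore largely confounded.

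Either drug alone gave smaller differences in Ccl22, which did not pass the test. ADU-S100 exceeded vehicle by 0.50 (SE 0.49, limma adjusted p = 0.823) and olaparib by 0.65 (SE 0.49, adjusted p = 0.623). The median of all 689 genes was itself higher in these comparisons, by 0.44 for ADU-S100 and 0.45 for olaparib, and quantile normalization brought Ccl22 to -0.38 and -0.15, respectively. The interaction (the ADU-S100 effect in the presence of olaparib minus that in its absence) was 0.49 (SE 0.69) for Ccl22. It holds the combination values for which the gene was chosen and is given with no test. In none of the 6 comparisons did any of the 689 genes pass an adjusted p of 0.05 in limma (0%) or in edgeR on the recovered counts. Unadjusted p-values below 0.05, in either direction, were found for 7.69% of genes between the combination and vehicle, 9.14% between it and ADU-S100 and 7.26% between it and olaparib. They were found for 4.79% for ADU-S100 against vehicle, 7.26% for olaparib against vehicle and 10.9% for the interaction.

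**Figure D1:**
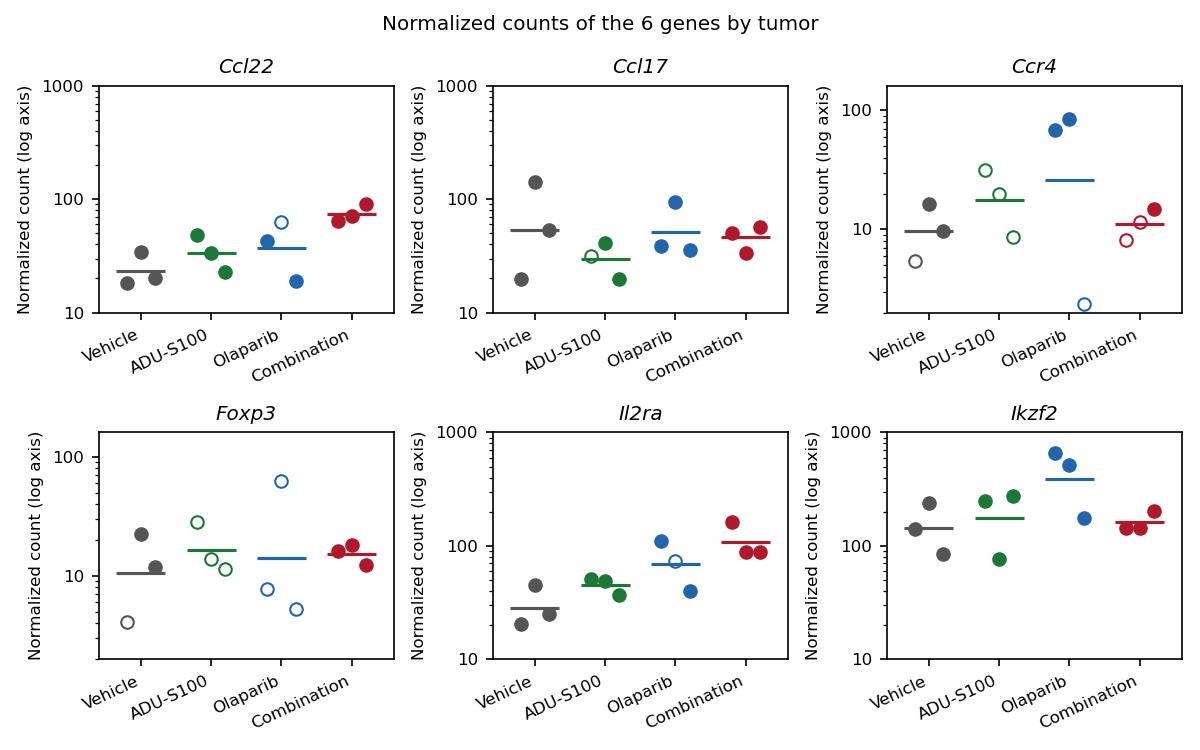
Normalized counts (log axis, arbitrary nCounter units) of the 6 genes in the 3 tumors of each group, with open circles for tumors at or under the low-count limit and a line at the mean taken on the log2 scale. The 3 combination tumors lie above all others for Ccl22 on this scale, with olaparib tumor 1517 (62.9, open circle) close to the lowest of them (64.8), Ccr4 and Foxp3 show 7 open circles each, and the ranges of Ccl17 and Ikzf2 overlap between the combination and every other group.

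Ccl17, the other CCR4 ligand, did not share this pattern. It measured 19.8, 141.2 and 54.0 normalized counts in the vehicle tumors, 31.3, 41.3 and 19.98 in the ADU-S100 tumors, 39.0, 94.3 and 35.9 in the olaparib tumors and 50.2, 33.8 and 57.4 in the combination tumors. All groups overlapped, and vehicle tumors 1269 and 1529 held the lowest and the highest value of all. The combination differed from vehicle by -0.21 (SE 0.66, limma adjusted p = 0.989), from ADU-S100 by 0.62 (adjusted p = 0.722) and from olaparib by -0.15 (adjusted p = 0.938). The sign of the difference from vehicle turned without vehicle tumor 1529 (0.48), without combination tumor 1270 (0.0027) and with the number series as a block (0.21). Between ADU-S100 and vehicle the difference was -0.83 (SE 0.66, adjusted p = 0.809), which placed Ccl17 at rank 685 of 689 when genes were ordered from the highest to the lowest difference. With any 1 tumor left out, this difference ran from -1.53 to -0.14, and its ADU-S100 values rested on 11 to 21 counts.

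The log2 ratio of Ccl22 to Ccl17 within a tumor, which does not depend on the scaling factor apart from the pseudocount of 1, was -1.17 ± 0.98 (SD, n = 3) with vehicle, 0.17 ± 0.45 with ADU-S100, -0.45 ± 0.53 with olaparib and 0.68 ± 0.34 with the combination. Probes differ in efficiency, so such a ratio is read only between tumors and not as more of one message than of the other. The combination tumors (0.36 to 1.05) were above every vehicle and olaparib tumor and overlapped with ADU-S100 (-0.30 to 0.61). Cx3cl1, the membrane-bound chemokine gene that lies between the pair, differed from vehicle by 0.41 in the combination (SE 0.38, adjusted p = 0.949).

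Other genes tied to these chemokines were described by a list of 10, which held the peptidase gene Dpp4 that trims CCL22, the interleukin-4 and interleukin-13 pathway with Stat6 and Irf4, Csf2 and its receptor, and the NF-kB genes Relb and Nfkb2. Of its 9 genes that passed the filter, 5 were above 0 in the combination against vehicle and the median difference was 0.19, against 0.21 over all genes. Against olaparib 0 of 9 were above 0 (41.4% of all genes), with a median of -0.75 against -0.15 over all genes. Against vehicle, olaparib alone had all 9 above 0 (74.6% of all genes), with a median of 1.07 against 0.45. Csf2 (1.26, SE 0.55), Nfkb2 (1.07, SE 0.46) and Relb (1.03, SE 0.37) had unadjusted p-values of 0.0434, 0.0386 and 0.0172 there, with limma adjusted p-values of 0.582, 0.582 and 0.577. The 10 genes measured summed to 2482 to 5052 normalized counts in vehicle, 3480 to 7326 in ADU-S100, 2643 to 13801 in olaparib and 3121 to 3304 in combination tumors. The highest olaparib sum was that of tumor 1517, and the lowest, of tumor 1521, lay below every combination tumor. Without tumor 1517, a setting chosen after seeing the data, 5 of 9 were above 0 in olaparib against vehicle (56.2% of all genes, median 0.28) and 4 of 9 in the combination against olaparib (64.6%, median -0.09), so both counts depended on it. In the fit over all 12 tumors, 0 of the list passed the adjusted test in any comparison.

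Ccl22 was then set against genes of the cells that could make it or carry it along. Of 12 dendritic cell genes that passed the filter, 11 were above 0 in the combination against vehicle (65.3% of all genes), with a median of 0.72. Il12b, a subunit of interleukin-12, was higher by 1.79 (SE 0.53, adjusted p = 0.278) and Itgax, which encodes the integrin CD11c, by 1.16 (SE 0.37, adjusted p = 0.347). The summed normalized counts of the 13 dendritic cell genes measured were 397 to 843 in vehicle, 498 to 1122 in ADU-S100, 530 to 1310 in olaparib and 911 to 1131 in combination tumors. Per Itgax, Ccl22 overlapped between the combination (-1.76 to -0.99 on the log2 scale) and each other group. Per Flt3, which encodes a receptor of dendritic cell precursors and conventional dendritic cells, Ccl22 did not overlap, at 1.43 to 2.62 in the combination and at most 1.32 in the 9 other tumors. Flt3 itself held 3 to 29 counts and was near background in 6 of 12 tumors. Per Ccr7, a chemokine receptor gene of mature dendritic cells and of naive T cells that was near background in 0 of 12 tumors (11 to 114 counts), Ccl22 overlapped between the combination (-0.50 to 1.19) and vehicle (-0.18 to 0.13), ADU-S100 (-0.44 to -0.08) and olaparib (-0.86 to -0.06). Per Ptprc, which encodes the leukocyte antigen CD45, Ccl22 was -2.57 to -2.21 in the combination, -4.34 to -3.59 with ADU-S100 and -3.86 to -2.98 with vehicle. The highest olaparib tumor, at -2.61, was the one with 6 Ccl22 counts. The part of dendritic cell or leukocyte number in the Ccl22 difference was not tested.

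Markers of B cells and lymphoid tissue were examined because a tumor in the mammary fat pad can be harvested with lymph node. Cxcr5, Cd79a and Blk were near background in all 12 tumors, and the list of 14 summed to 154 to 856 in vehicle, 253 to 1276 in ADU-S100, 302 to 2243 in olaparib and 567 to 766 in combination tumors. The B cell chemokine gene Cxcl13 was higher in the combination than in vehicle by 2.65 (SE 1.02, limma adjusted p = 0.472), with 249 to 593 normalized counts against 15.2 to 302. Of the 7 genes of this list that passed the filter, 4 were above 0 (65.3% of all genes), with a median of 0.56 against 0.21 over all genes. The lymphoid tissue chemokine genes Ccl19 (-0.55, SE 1.35) and Ccl21a (-0.19, SE 1.98) and the B cell receptor gene Tnfrsf13c (-0.34, SE 0.59) were below 0, each with a limma adjusted p of 0.989.

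Over the 12 tumors, the genes whose log2 values ran most like those of Ccl22 among 688 others were Slamf7 (Pearson r = 0.93, Spearman rho = 0.94), Cd3g (0.91 and 0.92), Xcl1 (0.90 and 0.91), Cyfip2 (0.88 and 0.94) and H2-Eb1 (0.88 and 0.80). Cd3g encodes a chain of the T cell receptor complex, Xcl1 a chemokine of activated T and NK cells, and H2-Eb1 an MHC class II chain. Among the other members, Il2ra was at rank 15 (r = 0.84), Foxp3 at rank 113 (r = 0.59), Ccr4 at rank 192, Ccl17 at rank 338 (r = 0.37) and Ikzf2 at rank 422. These values are descriptions. All points share the scaling of their tumor and the 4 treatments, and the combination tumors weigh on each of them.

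Ccr4 was near background in 7 of 12 tumors and held 20 counts or fewer in 11. Its normalized counts were 5.46, 16.4 and 9.70 with vehicle, 31.3, 19.6 and 8.56 with ADU-S100, 68.2, 83.8 and 2.36 with olaparib and 8.10, 11.5 and 14.8 with the combination. The olaparib group thus held both the highest and the lowest value, and the combination tumors lay within the range of the vehicle tumors. Olaparib tumor 1510 held 35 counts, whereas the 83.8 of tumor 1517 stood for 8 counts (exact Poisson 95% interval 3.45 to 15.8) and the 2.36 of tumor 1521 for 4. The combination differed from vehicle by 0.20 (SE 1.03, limma adjusted p = 0.989) and from olaparib by -1.15 (SE 1.03, adjusted p = 0.728).

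Tumor 1521 decided the olaparib comparisons of Ccr4. Without it, olaparib exceeded vehicle by 2.85 (limma adjusted p = 0.02498), where 50 of 689 genes were called higher (7.26%). Likewise, the combination was below olaparib by a log2 difference of -2.66 (adjusted p = 0.0319, 42 genes or 6.10% called lower), and the interaction was -3.46 (adjusted p = 0.0225, 77 genes or 11.2% called lower). These calls rest on the 2 remaining olaparib tumors, of which one has 8 counts.

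**Figure D2:**
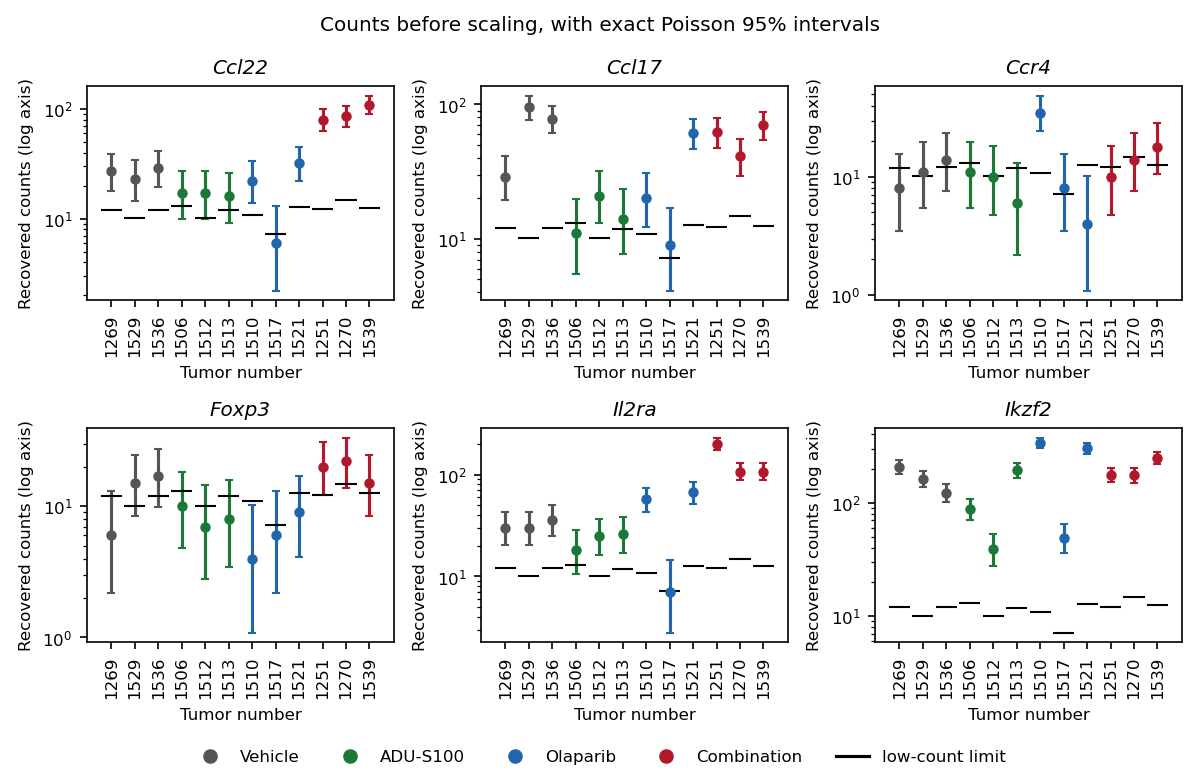
Recovered counts before scaling (log axis) of the 6 genes in each of the 12 tumors, with exact Poisson 95% intervals, colored by treatment, and a black line at the low-count limit of each tumor. Ccl22 holds 80 to 110 counts in the combination tumors and 6 to 32 elsewhere, Foxp3 stays between 4 and 22 counts in every tumor, and olaparib tumor 1517 is low for all 6 genes.

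Foxp3, the defining gene of regulatory T cells, had at most 22 recovered counts in any tumor. Recovered counts were 6, 15 and 17 in the vehicle tumors, 10, 7 and 8 in the ADU-S100 tumors, 4, 6 and 9 in the olaparib tumors and 20, 22 and 15 in the combination tumors. It was near background in 1 vehicle tumor, in all 3 ADU-S100 and all 3 olaparib tumors and in 0 combination tumors. The counts of the 3 tumors of a group summed to 38, 25, 19 and 57, in the same order. Regulatory T cells were therefore barely marked by Foxp3 in these RNA samples, and the label of the gene group rests on Il2ra and Ikzf2, which other cells also express. The Foxp3 counts, their sums and the near-background calls are not corrected for depth. Total recovered counts were 1339258 to 1491854 per combination tumor and 372390 to 683982 per ADU-S100 tumor. They were 106206 to 1392128 per olaparib tumor and 632152 to 1519471 per vehicle tumor. Group differences in the unscaled Foxp3 counts and calls are thus not read as differences in Foxp3 level.

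After scaling, Foxp3 measured 4.09, 22.3 and 11.8 normalized counts with vehicle, 28.5, 13.8 and 11.4 with ADU-S100, 7.79, 62.9 and 5.30 with olaparib and 16.2, 18.1 and 12.3 with the combination. The highest value of all, 62.9 in olaparib tumor 1517, stood for 6 counts. Foxp3 reached the filter of 20 normalized counts in exactly 3 tumors, none of them a combination tumor, and 2 of these values were near background. The combination differed from vehicle by 0.51 (SE 0.82, limma adjusted p = 0.989), from ADU-S100 by -0.10 (adjusted p = 0.953) and from olaparib by 0.10 (adjusted p = 0.956). With an SE of 0.82, changes of this size could not be seen in either direction. Without vehicle tumor 1269 the difference from vehicle was -0.08, and within the number series it was 1.83 for tumors numbered 12 and -0.38 for those numbered 15.

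Foxp3 was also read per T cell message, as the log2 ratio to the mean of Cd3d, Cd3e and Cd3g within a tumor. The Cd3 genes were chosen as the reference with earlier results of these data known, and T cell genes were higher on average in the combination, which by itself lowers this ratio. Of 14 general T cell genes that passed the filter, all 14 were above 0 in the combination against vehicle (65.3% of all genes), with a median of 1.11. Thy1, which mouse T cells also carry, was placed in the stroma and endothelium list instead. It differed by -1.23 (SE 0.51, limma adjusted p = 0.504), so the full count depends on that placement. Cd3e was higher by 1.75 (SE 0.64, limma adjusted p = 0.456), Cd4 by 1.75 (SE 0.52, adjusted p = 0.278) and Cd3g by 1.64 (SE 0.49, adjusted p = 0.278). The 16 T cell genes measured summed to 497 to 831 normalized counts in vehicle, 581 to 1233 in ADU-S100, 562 to 1278 in olaparib and 917 to 1219 in combination tumors. Foxp3 per Cd3 message was -0.92 ± 1.04 (SD, n = 3) with vehicle, -0.94 ± 0.24 with ADU-S100, -1.26 ± 0.85 with olaparib and -1.87 ± 0.43 with the combination. The combination mean was the lowest, although vehicle tumor 1269 (-2.12) and olaparib tumor 1510 (-2.11) lay among the combination tumors (-2.26 to -1.42).

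The lower ratio came mostly from its denominator. Against vehicle the combination differed by 0.51 in Foxp3 and by 1.46 in the Cd3 mean, against ADU-S100 by -0.10 and 0.83, against olaparib by 0.10 and 0.71, and against the 9 other tumors by 0.17 and 0.9996. The ratio is therefore not a measure of a lower Foxp3 level. Exact two-sided permutation tests of this ratio gave p = 0.3 against vehicle (difference -0.95), p = 0.1 against ADU-S100 (-0.93) and p = 0.4 against olaparib (-0.61), where 3 tumors against 3 cannot go below 0.1. Against the 9 other tumors the difference was -0.83 with an exact p = 0.0909, where the smallest possible value is 0.0045. Adjusted over these 4 tests, the exact permutation p-values were 0.4, 0.2, 0.4 and 0.2. The last difference was -0.96 with p = 0.0485 in the exact permutation test when vehicle tumor 1269 or olaparib tumor 1510 was left out. These are the tumors that lay among the combination tumors. The difference was -0.87 with Cd4 in place of the Cd3 genes (exact permutation p = 0.209), -0.02 with Ptprc (exact permutation p = 0.818) and -0.45 with background subtraction (exact permutation p = 0.664), and so its size depended on the reference and on the background.

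Il2ra had the largest difference of the members between the combination and vehicle. It measured 20.5, 44.6 and 24.9 normalized counts with vehicle, 51.3, 49.1 and 37.1 with ADU-S100, 111.1, 73.4 and 39.5 with olaparib and 162.0, 88.2 and 87.7 with the combination. The combination tumors were above every vehicle and ADU-S100 tumor and above 8 of the 9 other tumors, with olaparib tumor 1510 as the exception. Group means of the log2 values were 4.88 ± 0.57 (SD, n = 3), 5.54 ± 0.25, 6.12 ± 0.74 and 6.77 ± 0.50, in the same order. The combination exceeded vehicle by 1.89 (SE 0.48, a 3.70-fold difference), with an unadjusted p of 0.0021 and a limma adjusted p of 0.278. It exceeded ADU-S100 by 1.23 (unadjusted p = 0.0251, limma adjusted p = 0.492) and olaparib by 0.65 (adjusted p = 0.663). The difference from vehicle was 2.49 among tumors numbered 12 and 1.37 among those numbered 15. Over the alternative settings the adjusted p against vehicle ranged from 0.0797 to 0.994.

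Olaparib alone exceeded vehicle for Il2ra by 1.24 (SE 0.48, unadjusted p = 0.0239, limma adjusted p = 0.577) and ADU-S100 alone by 0.66 (adjusted p = 0.809). The interaction was -0.01 (SE 0.67, adjusted p = 0.999), where the median over all genes was -0.55. Its size and sign depended on the scaling, at 0.52 with median scaling, 0.55 in edgeR with TMM, 0.98 with quantile normalization and 0.43 with background subtraction. Per Ptprc message, the 6 tumors exposed to olaparib, alone or in the combination, lay between -2.39 and -1.26 on the log2 scale, and the 6 other tumors between -4.26 and -2.83. This split was noticed after the values were seen and is given with no test. It includes olaparib tumor 1517, whose 7 Il2ra counts were near background. The share of all genes that split in the same way per Ptprc was not computed, so nothing is read from it. In olaparib against vehicle, 74.6% of all genes were above 0, while Ptprc differed by 0.21.

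Per Cd3 message, Il2ra overlapped between all groups (0.43 ± 0.44, 0.46 ± 0.61, 0.93 ± 0.96 and 0.86 ± 0.93, SD, n = 3). The share of Il2ra that came from regulatory T cells, from activated T cells or from other cells was not tested. Among 8 other genes of the interleukin-2 axis that passed the filter, 7 were above 0 in the combination against vehicle and 8 in olaparib against vehicle, with medians of 0.51 and 1.05. Over all genes, 65.3% and 74.6% were above 0 in these comparisons, with medians of 0.21 and 0.45. Without olaparib tumor 1517, 6 of 8 were above 0 in olaparib against vehicle, with a median of 0.52. Il2rb, the beta chain of the receptor, was highest with ADU-S100 alone (3.37 above vehicle, SE 1.17, limma adjusted p = 0.809), where tumor 1506 reached 1934 normalized counts.

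In the combination, 2 members, Ccl22 and Il2ra, did not overlap with vehicle and were higher (18.4% of all genes were so), and the same 2 did not overlap with ADU-S100 (10.4%). Ccl22 was the 1 member that did not overlap with olaparib (11.0%). Ccl22 was chosen for these contrasts, which leaves Il2ra as 1 of 5 members against vehicle and against ADU-S100. Against olaparib Il2ra overlapped as well, and no member is left. From 1 member nothing is read against these backgrounds.

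Ikzf2 was well above background in all 12 tumors, with 39 to 336 counts. Its normalized counts were 141.9, 240.8 and 84.5 with vehicle, 250.7, 76.6 and 275.4 with ADU-S100, 654.6, 513.5 and 177.4 with olaparib and 142.6, 144.3 and 204.2 with the combination. Olaparib tumors 1510 and 1517 stood above all others, while tumor 1521 lay in the range of the other groups. Olaparib exceeded vehicle by 1.45 (SE 0.64, unadjusted p = 0.0432, limma adjusted p = 0.582). The combination differed from vehicle by 0.18 (adjusted p = 0.989) and from olaparib by -1.27 (SE 0.64, adjusted p = 0.594). Per Cd3 message, Ikzf2 was 2.72 ± 0.20 (SD, n = 3) with vehicle, 2.38 ± 0.83 with ADU-S100, 3.42 ± 0.76 with olaparib and 1.44 ± 0.69 with the combination, so that the combination tumors (0.67 to 2.002) lay below every vehicle tumor (2.54 to 2.93) and every olaparib tumor (2.61 to 4.11) but overlapped with the ADU-S100 tumors (1.70 to 3.31). Against vehicle the combination differed by 0.18 in Ikzf2 and by 1.46 in the Cd3 mean, and against olaparib by -1.27 and 0.71. Against vehicle the ratio is therefore not a measure of a lower Ikzf2 level. These differences of Ikzf2 per Cd3 were noticed after the values were seen and were not tested. The share of all genes that separated in this way per Cd3 was not computed.

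**Figure D3:**
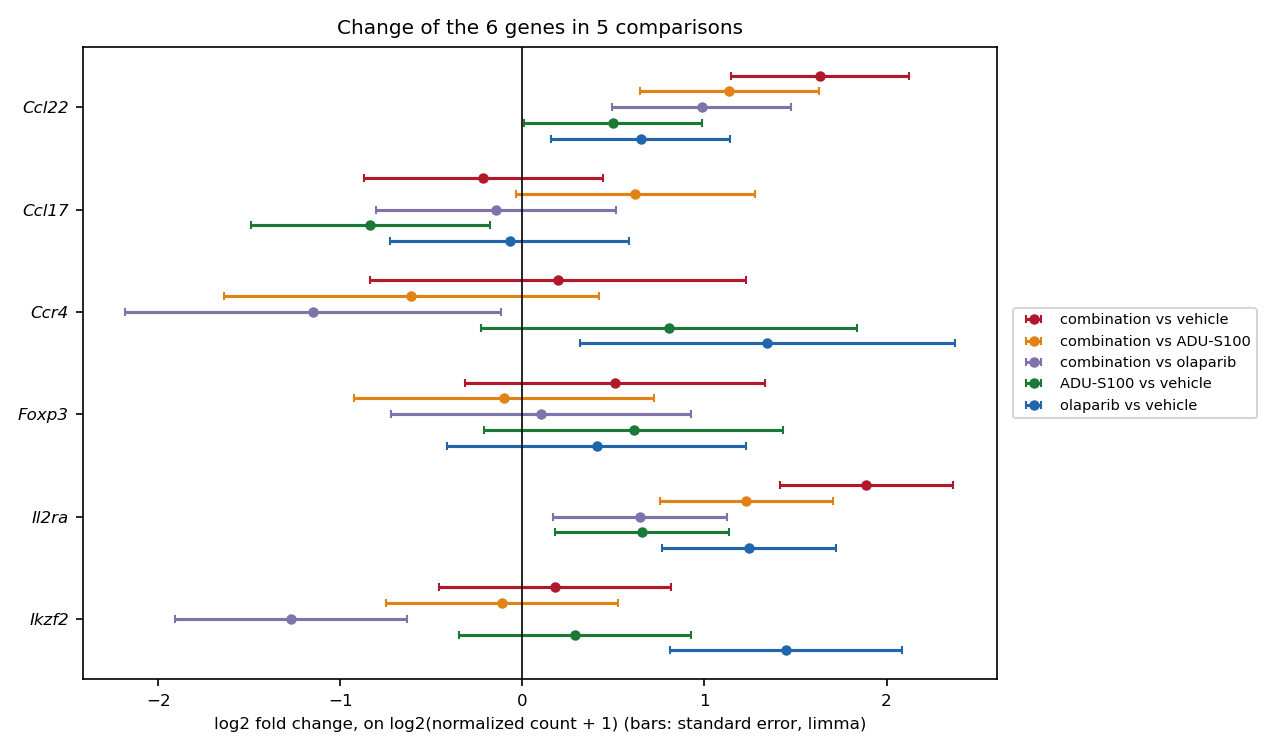
log2 differences of the 6 genes in 5 comparisons, from limma on log2(normalized count + 1), with bars of 1 standard error. Ccl22 and Il2ra lie to the right of 0 in every comparison shown, Ccr4 and Foxp3 have the widest bars, and Ikzf2 is farthest from 0 in the 2 comparisons with olaparib.

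Of 22 further genes that regulatory T cells are known to use, all 22 measured passed the filter, and 16 were above 0 in the combination against vehicle (65.3% of all genes), with a median of 0.37 against 0.21 over all genes. Against ADU-S100, 8 were above 0 (40.3% of all genes), with a median of -0.39 against -0.22, and against olaparib 7 (41.4%), with a median of -0.15, the same as over all genes. Without olaparib tumor 1517, 18 of 22 were above 0 against olaparib (64.6% of all genes), with a median of 0.47. Of the list, 0 genes passed the adjusted test in any comparison of the fit over all 12 tumors, and Icos and Ccr6 had unadjusted p-values below 0.05 in the combination against vehicle. Icos, a costimulatory receptor of activated and regulatory T cells, measured 6.93 to 28.2 normalized counts with vehicle and 43.7 to 56.9 with the combination, which was higher by 1.63 (SE 0.63, limma adjusted p = 0.472). Ccr6, a chemokine receptor, was higher by 1.39 (SE 0.61, adjusted p = 0.599).

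Ctla4, an inhibitory receptor that regulatory T cells carry constantly, differed from vehicle by 0.77 in the combination (SE 0.72, limma adjusted p = 0.949) and by 1.09 with ADU-S100 (adjusted p = 0.809). Tnfrsf18, which encodes GITR, differed by 0.16 (SE 0.46) and Tnfrsf4, which encodes OX40, by 0.14 (SE 0.39) in the combination, both with a limma adjusted p of 0.989. Il10, an inhibitory cytokine gene, differed by 0.45 (SE 0.74, adjusted p = 0.989) in the combination and by 1.58 (SE 0.74, adjusted p = 0.582) with olaparib alone. It held only 4 to 14 counts and was near background in 9 of 12 tumors.

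Of 9 T helper lineage genes that passed the filter, 7 were above 0 in the combination against vehicle and 1 against olaparib, with medians of 0.39 and -0.83, where 65.3% and 41.4% of all genes were above 0 and the medians over all genes were 0.21 and -0.15. Without olaparib tumor 1517, 5 of 9 were above 0 against olaparib, with a median of 0.0738. Of 9 macrophage genes, another possible source of the chemokines, 4 were above 0 against vehicle, with a median of -0.03. Of 5 leukocyte genes 4 were above 0 (median 0.55), of 4 epithelial genes 4 (median 0.36), and of 10 stroma and endothelium genes 0 (median -0.91). The stroma and endothelium list was also low with olaparib alone, with 0 of 10 above 0 (74.6% of all genes) and a median of -0.80, which was -1.93 without olaparib tumor 1517, -0.27 without tumor 1510 and -0.62 without tumor 1521 (4 of 10 above 0 in each of the last 2). In each of these lists 0 genes passed the adjusted test in any comparison of the fit over all 12 tumors.

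**Figure D4:**
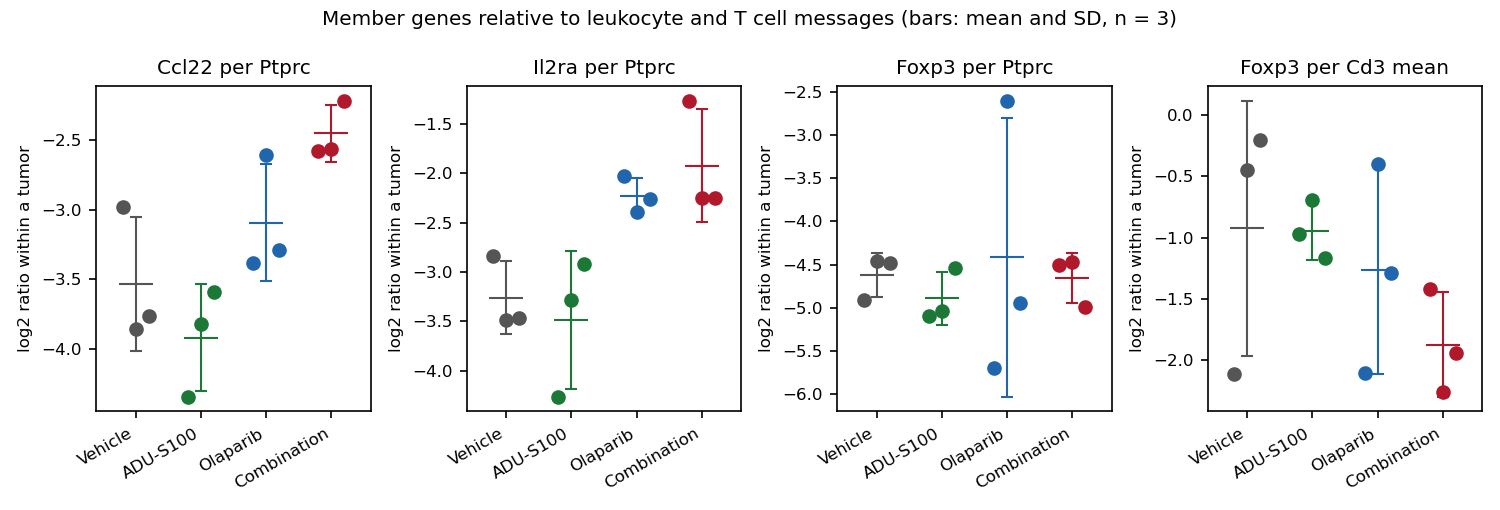
log2 ratios within each tumor of Ccl22, Il2ra and Foxp3 to Ptprc, and of Foxp3 to the mean of Cd3d, Cd3e and Cd3g, with points for tumors and bars for the mean and SD (n = 3 per group). Ccl22 per Ptprc is highest in the combination. Il2ra per Ptprc is higher in the 6 tumors that received olaparib, a split noticed after the values were seen and not tested. Foxp3 per Ptprc overlaps between all groups, and Foxp3 per Cd3 message is lowest on average in the combination, where the Cd3 genes in the denominator were higher and Foxp3 itself differed from vehicle by 0.51.

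The genes most like Foxp3 over the 12 tumors were Cmklr1 (Pearson r = 0.94, Spearman rho = 0.87), Il16 (0.94 and 0.97), Lyn (0.93 and 0.87), Cd38 (0.93 and 0.85) and Syk (0.93 and 0.97), with the same sharing of treatments and scaling. Foxp3 itself correlated with the log2 scaling factor of the tumor at r = 0.77 and Ccr4 at 0.85, against 0.60 for Ikzf2, 0.35 for Ccl17, 0.33 for Ccl22 and 0.21 for Il2ra. The part of the scaling factor in the Foxp3 and Ccr4 values was not tested.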

How the data were processed

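The authors isolated RNA from snap-frozen tumor chunks, counted 100 ng on the nCounter PanCancer Immune panel, and processed it in nSolver 4.0 with quality control, background correction, and normalization to positive controls and to housekeeping genes by their geometric mean. The deposited values are these normalized counts, a signal on a linear scale, for 750 genes in 12 tumors. Control and housekeeping probes were not used here. No genome build is given in the sources used here for the probes. Samples were grouped by their treatment label.

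Counts before scaling were recovered by dividing each tumor's values by their common step (100% whole within 0.01 of a count, apart from 12 values at a floor of 1). The step was inferred from all low values in 7 tumors, where the lowest was not 1 count. Tests used limma 3.58.1 in R 4.3.3 on log2(normalized count + 1) in 689 genes with at least 20 in at least 3 tumors, as 1 fit over 12 tumors, with Benjamini-Hochberg adjustment over all 689 and a threshold of 0.05. All 6 genes passed the filter. For Foxp3 ratios, exact permutation tests (two-sided) were run in scipy 1.17.1. The scripts were tested on simulated data.

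The 6 genes and all lists were chosen with earlier results of these data known. The lists covered CCR4 axis, T cell, regulatory T cell, interleukin-2, T helper, dendritic cell, macrophage, B cell and lymphoid, leukocyte, epithelial, and stroma and endothelium genes. Named were the 6 genes, the 3 list genes with the largest change among those with an unadjusted p below 0.05, fixed reference markers, and the 5 genes most like Ccl22 and Foxp3. Cx3cl1, Cxcr5, Cd79a, Blk, Ccl19, Ccl21a and Tnfrsf13c were named after their values were seen. Alternatives were no filter, a filter at 50, a pseudocount of 10, quantile normalization, median scaling, eBayes with an intensity trend, a fit restricted to the compared groups, the number series as a block, the methods' t-test, edgeR 4.0.16 on recovered counts, background subtraction, and each tumor left out. Recovered counts per 1000000 and the scalings tried for the separation of Ccl22 were added after seeing the data, as were list counts with each olaparib tumor left out.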

Additional observations from a re-analysis of the deposited data

How the results depend on the processing

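No paired analysis was possible because the groups share no replicate numbers. Of 840 recomputed differences of the 6 genes, 758 kept their sign and, where tested, their side of the threshold, 3 moved by more than 1 SD (the Ccl22 interaction, to 1.60 with quantile normalization, 1.16 in edgeR with TMM and 1.22 with background subtraction), 76 turned sign and 3 passed the threshold (Ccr4 without olaparib tumor 1521). The differences of Ccl22 between the combination and each other group stayed positive in every alternative run (1.07 to 1.90 against vehicle, 0.87 to 1.63 against ADU-S100 and 0.51 to 1.45 against olaparib), as did those of Il2ra. In scalings added after seeing the data, Ccl22 in the combination stayed above all 9 other tumors with median scaling, quantile normalization, TMM scaling and background subtraction, and above 8 of 9 per 1000000 recovered counts. A filter at 50 removed Foxp3 and Ccr4. For the combination against vehicle, 2 genes passed when the fit held the compared groups only and 3 in the methods' t-test after Benjamini-Hochberg adjustment (0 after Benjamini-Yekutieli). For the combination against ADU-S100, 1 gene passed with a pseudocount of 10, a filter at 50, median scaling, quantile normalization and an intensity trend, and 0 to 1 with each tumor left out (1 without ADU-S100 tumor 1506). With each tumor left out, 0 to 54 genes passed for the combination against olaparib, 0 to 55 for olaparib against vehicle and 0 to 86 for the interaction, the highest each without olaparib tumor 1521. Foxp3 per T cell message differed from the 9 other tumors by -0.75 with a pseudocount of 10 (exact permutation p = 0.0364) and by -1.06 to -0.64 with each tumor left out. It turned to 0.23 against ADU-S100 with Ptprc as the reference and to 0.073 against olaparib with background subtraction. The causes were not tested. With the number series as a block the sign turned for the combination against vehicle (Ccl17 0.21), the combination against olaparib (Ccl17 0.71), the combination against ADU-S100 (Foxp3 0.34, Ikzf2 0.0601) and the interaction (Foxp3 0.15, Il2ra 0.11). With quantile normalization the sign turned for the combination against olaparib (Ccl17 0.0699), ADU-S100 against vehicle (Ccl22 -0.38, Ccr4 -0.23, Foxp3 -0.35, Il2ra -0.14, Ikzf2 -0.18), olaparib against vehicle (Ccl22 -0.15, Foxp3 -0.45), the combination against ADU-S100 (Ccr4 0.27, Foxp3 0.62, Ikzf2 0.13), the interaction (Foxp3 1.07, Il2ra 0.98) and the combination against vehicle (Ikzf2 -0.0511). In edgeR with TMM the sign turned for the combination against olaparib (Ccl17 0.0232), ADU-S100 against vehicle (Ccl22 -0.0006, Ikzf2 -0.078), the combination against vehicle (Ccr4 -0.12, Ikzf2 -0.20), the combination against ADU-S100 (Foxp3 0.0654), olaparib against vehicle (Foxp3 -0.21) and the interaction (Foxp3 0.28, Il2ra 0.55). With background subtraction the sign turned for the combination against olaparib (Ccl17 0.0773), the combination against ADU-S100 (Ccr4 0.27, Foxp3 0.90), olaparib against vehicle (Foxp3 -0.20) and the interaction (Foxp3 1.10, Il2ra 0.43). With median scaling the sign turned for the combination against ADU-S100 (Foxp3 0.0972, Ikzf2 0.0919), the interaction (Foxp3 0.0246, Il2ra 0.52), the combination against vehicle (Ikzf2 -0.0269) and ADU-S100 against vehicle (Ikzf2 -0.12). With a pseudocount of 10 the sign turned for the combination against olaparib (Foxp3 -0.0905) and the interaction (Il2ra 0.0573). In edgeR with the deposited factors the sign turned for the combination against olaparib (Foxp3 -0.11). Leaving out 1 tumor at a time turned the sign at least once in these ranges of log2 differences. Ccl17 ranged from -0.91 to 0.48 for the combination against vehicle, -0.39 to 0.29 for the combination against olaparib, -0.77 to 0.62 for olaparib against vehicle and -0.0009 to 1.39 for the interaction. Ccr4 ranged from -0.16 to 0.55 for the combination against vehicle. Foxp3 ranged from -0.0769 to 1.02 for the combination against vehicle, -0.35 to 0.27 for the combination against ADU-S100, -0.53 to 1.14 for the combination against olaparib, -0.63 to 1.04 for olaparib against vehicle and -1.15 to 0.52 for the interaction. Il2ra ranged from -0.40 to 0.33 for the interaction. Ikzf2 ranged from -0.20 to 0.55 for the combination against vehicle, -0.70 to 0.22 for the combination against ADU-S100 and -0.0836 to 0.88 for ADU-S100 against vehicle. Depth limits Foxp3 and Ccr4 most, whose counts were mostly 20 or fewer, and olaparib tumor 1517, with 29 counts in its median gene.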
